A study of Mus musculus with 9 samples.

Results

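The genes described here are 47 mitosis genes, which encode the kinases, cyclins, checkpoint proteins, motors and structural proteins that carry a cell through mitosis, together with the transcription factors Foxm1 and Mybl2. They were chosen by gene symbol, with no measured value in the rule, from a table of 43629 mouse genes. All 47 were found and had enough reads to test, out of 11002 tested genes. The cells were an Eµ-Myc lymphoma line, a single clone numbered 4242, derived from a mouse B-cell tumour in which a Myc transgene is driven by the immunoglobulin heavy chain enhancer. All cultures carry that transgene. Cultures were exposed for 2 h to 1 µM JQ1 (n = 3), to 2.5 µM RG6146 (n = 3) or to DMSO, the solvent (n = 3). Both compounds inhibit BET bromodomain proteins, readers of acetylated histones that help RNA polymerase II to leave the promoter. RNA was measured by 3′ tag sequencing, which gives about 1 read per transcript, so levels in CPM, counts scaled to the size of the library, can be compared between genes without division by length.

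Mitotic genes are transcribed late in the cell cycle, in G2 and M, and their transcripts are low for the rest of it. Their promoters often carry a cell cycle genes homology region (CHR) next to CCAAT boxes. The MuvB complex binds the CHR and recruits either repressors or the activators B-Myb, the product of Mybl2, and Foxm1. Mitosis genes are known as a large part of the proliferation signature of lymphomas.

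The libraries held 3410161 to 5031717 gene counts each. Hexim1, a gene known to respond to BET inhibition, averaged 395 ± 3.99 CPM with JQ1, 372 ± 7.96 CPM with RG6146 and 135 ± 5.83 CPM with DMSO (SD, n = 3 each). Myc, whose endogenous and transgenic transcripts are not told apart here, averaged 152 ± 22.8 CPM with JQ1, 195 ± 15.6 CPM with RG6146 and 114 ± 11.1 CPM with DMSO. Of 10 B-cell marker genes, at most 1 was at 0 in any library. Their summed level was 358 to 379 CPM with JQ1, 378 to 428 CPM with RG6146 and 686 to 766 CPM with DMSO. The sum of 12 myeloid markers was 59.3 to 274 CPM with JQ1, 86.6 to 126 CPM with RG6146 and 159 to 750 CPM with DMSO, with 1 to 4 of them at 0 in a library. Within its group it was highest in DMSO replicate 2, at 750 CPM, and in JQ1 replicate 2, at 274 CPM, and DMSO replicate 3 held 353 CPM. Not every myeloid marker followed the sum. S100a8 held 104, 345 and 48 counts with JQ1, 76, 120 and 181 with RG6146, and 274, 1096 and 801 with DMSO. Csf1r held 135, 143 and 130 counts with JQ1, 153, 89 and 141 with RG6146, and 113, 81 and 83 with DMSO. The sum of 10 T and NK cell markers, 5 to 8 of them at 0, was 2.77 to 6.48 CPM with JQ1, 5.34 to 7.59 CPM with RG6146 and 8.17 to 12.3 CPM with DMSO. Its largest part was Cd2, at 9 to 41 counts per library. The sum of 10 stromal and endothelial markers, 5 to 8 of them at 0, was 98.4 to 101 CPM with JQ1, 104 to 111 CPM with RG6146 and 132 to 143 CPM with DMSO. Nearly all of it was Vim, at 369 to 519 counts per library, and Pecam1, at 19 to 138. Every other marker of that list, collagens included, held at most 3 counts in a library, so the sum does not show stromal cells. Erythroid markers overlapped between groups at 3.03 to 17.4 CPM. The part of these cell types in the results below was not tested, beyond leaving out DMSO replicate 2 and JQ1 replicate 2.

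After 2 h of JQ1, 2 of the 47 mitosis genes rose and 4 fell, or 12.8% of them, at a Benjamini-Hochberg adjusted p below 0.05 in edgeR's quasi-likelihood test over all tested genes. Over all 11002 tested genes, 28.9% were called with JQ1. After RG6146, 2 of the 47 rose and 8 fell, or 21.3%, beside 26.0% of all tested genes. How these shares compare depended on the processing. With libraries scaled by size alone, 40.4% of the mitosis genes were called with JQ1 beside 30.5% of all genes, and 27.7% with RG6146 beside 26.9%. With no filter on low counts, 23655 genes were tested. There 8 of the 47, or 17%, were called with JQ1 beside 14.2% of all genes, and 5 of the 47, or 10.6%, with RG6146 beside 12.8%. With JQ1, 3361 of the 23655 genes were called, beside 3184 of 11002 with the filter. The share over all genes thus fell mostly because low-count genes that are seldom called were added. The JQ1 share of mitosis genes was the larger under both settings. Birc5 and Cenpf were called higher with each compound, and Foxm1 and Spc24 were called lower with each. Kif20b and Ect2 fell with JQ1. Plk1, Ccnb2, Cdc25b, Mybl2, Tpx2 and Espl1 fell with RG6146. The comparisons share the DMSO libraries, so the calls with the 2 compounds are not independent of each other. In RNA from bulk cultures, fewer cells in G2 or M and less RNA per cell cannot be told apart.

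The changes were small. With JQ1 the log2 fold changes of the 47 genes ran between -0.53 and 0.26, with a median of -0.10, and 29 lay below 0. With RG6146 they ran between -0.66 and 0.33, with a median of -0.04. The median over all tested genes was 0.00 with JQ1 and 0.01 with RG6146. No mitosis gene differed from DMSO by more than 1.5-fold with JQ1 by its point estimate, and 1, Foxm1, did with RG6146, whereas 23.4% of all tested genes did with JQ1 and 22.6% with RG6146. With a filter at a mean of at least 10 CPM, 16% of 7411 tested genes did with JQ1 and 14.7% with RG6146. Of the 43 mitosis genes left there, 0 did with JQ1 and 1 with RG6146. For 40 of the 47 genes, or 85.1%, the 95% interval of the JQ1 fold change lay within 1.5-fold of no change on both sides, beside 39.9% of all tested genes. With RG6146 this held for 37 genes, or 78.7%, beside 41.5%. The intervals of the mitosis genes were also narrower, with a median of 0.22 on either side of the log2 fold change with JQ1, against 0.35 over all tested genes.

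**Figure D1:**
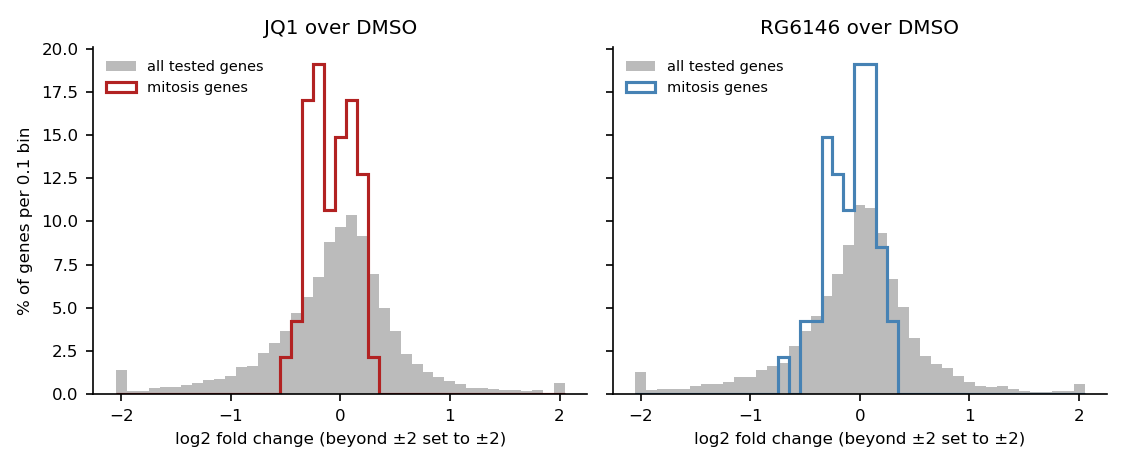
Share of genes (%) in bins of 0.1 of the log2 fold change over DMSO, for JQ1 on the left and RG6146 on the right; grey bars are the 11002 tested genes and coloured outlines the 47 mitosis genes. The mitosis genes lie between -0.53 and 0.26 with JQ1 and between -0.66 and 0.33 with RG6146, inside the wider spread of all tested genes.

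**Figure D2:**
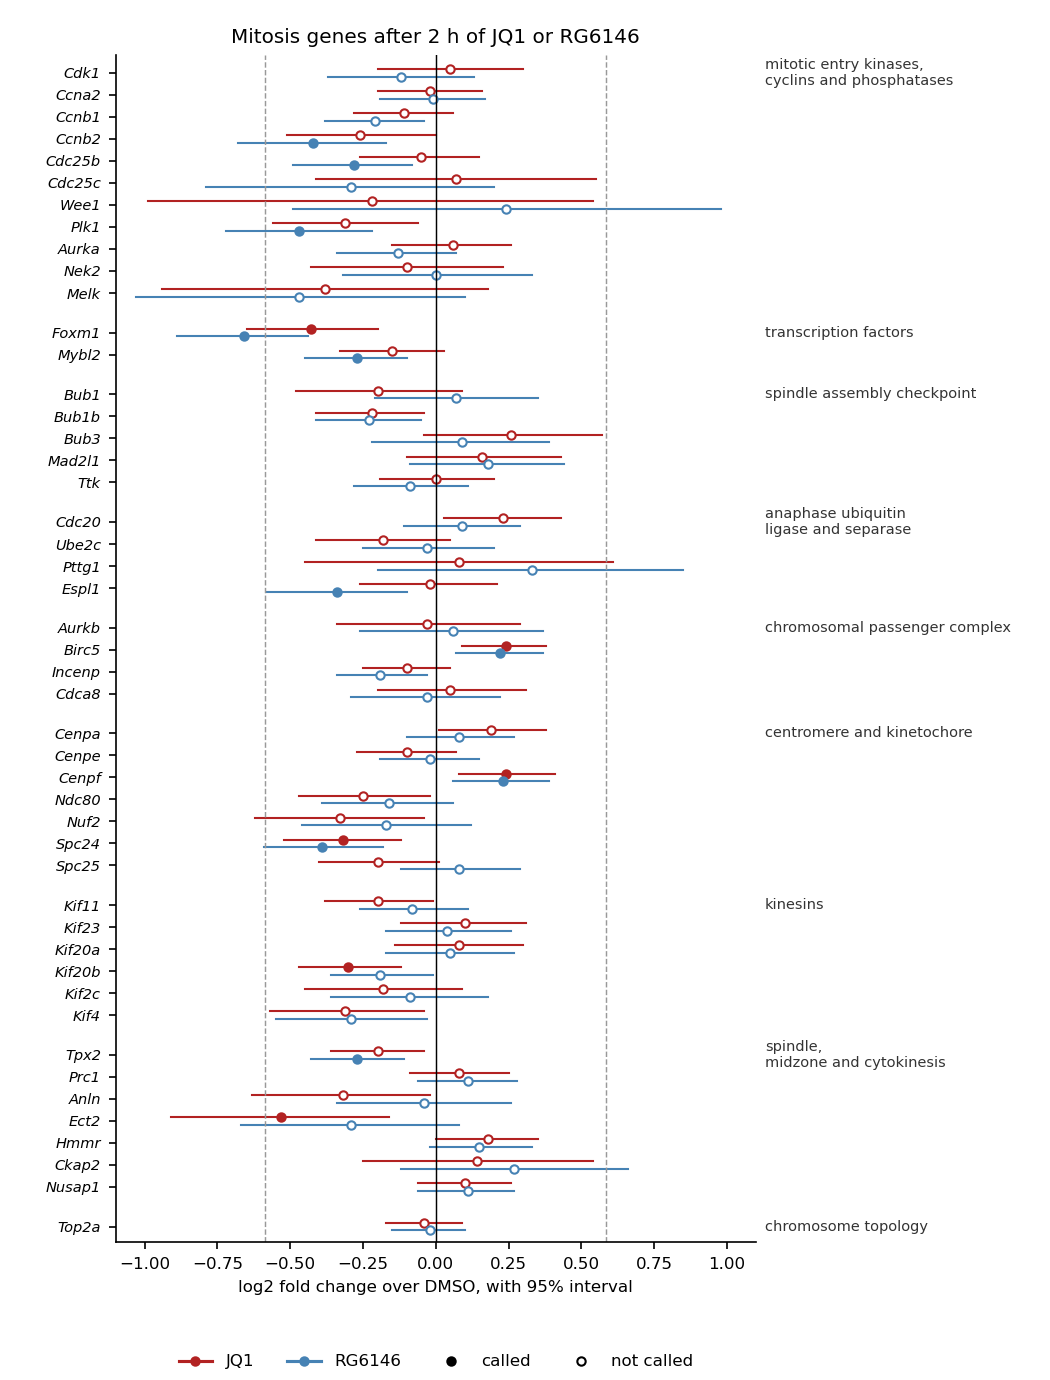
Log2 fold change over DMSO of each of the 47 mitosis genes, grouped by role, with its 95% interval, for JQ1 (red) and RG6146 (blue); filled points were called at an adjusted p below 0.05, and dashed lines mark 1.5-fold. Most intervals lie between the dashed lines, and Foxm1 with RG6146 is the point farthest left.

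Scaling to the ERCC spike-ins, synthetic RNAs added to each sample, ended every call among the 47 with both compounds, while the log2 fold changes of the called genes kept their sign. Foxm1 was at -0.44 with JQ1 (adjusted p = 0.304) and -0.64 with RG6146 (0.0830) under that scaling, Ect2 at -0.54 with JQ1 (0.223) and Plk1 at -0.44 with RG6146 (0.284). With a replicate block added to it, 4 genes were called lower with each compound. The spike-in share of the counts fell with replicate number in every group, and a replicate block allows for such a shared shift. The loss under spike-in scaling is not repeated at each gene below. The number of calls also moved with single libraries. With JQ1 there were 0 higher and 3 lower without JQ1 replicate 1, 1 higher and 2 lower without JQ1 replicate 3, and 0 higher and 4 lower without DMSO replicate 1. With RG6146 there were 0 higher and 5 lower without RG6146 replicate 1, 1 and 5 without RG6146 replicate 2, and 1 and 8 without RG6146 replicate 3. Leaving out a DMSO library gave 0 higher and 9 lower for replicate 1, 2 and 4 for replicate 2, and 0 and 6 for replicate 3, and leaving out JQ1 replicate 1 gave 1 and 8. Without the DMSO and the JQ1 library highest in myeloid markers within their group, replicate 2 of each, 2 genes were higher and 2 lower with JQ1, and 2 higher and 4 lower with RG6146. The libraries of the 2 groups did not overlap for 18 of the 47 genes with JQ1, or 38.3% beside 42.6% of all tested genes, and for 21 with RG6146, or 44.7% beside 40.9%. At an unadjusted p below 0.05 there were 17 of the 47 with JQ1 and 15 with RG6146, beside 39.5% and 36.8% of all tested genes.

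**Figure D3:**
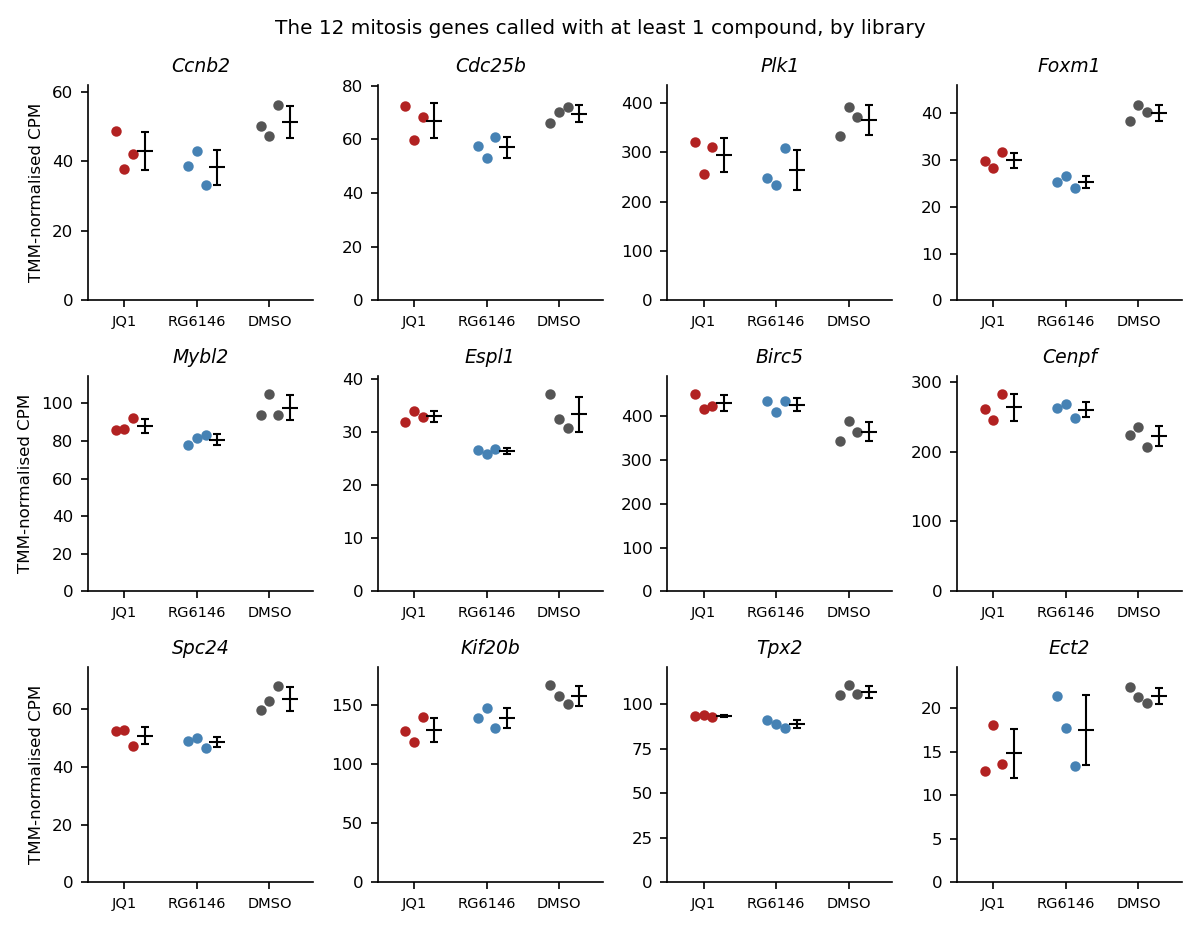
TMM-normalised CPM of the 12 mitosis genes called with at least 1 compound, in each of the 9 libraries (points) with the mean and SD of the 3 libraries of a group (bars to the right), from a baseline of 0. Birc5 and Cenpf are lowest in DMSO, Foxm1 and Spc24 are highest in DMSO, and Ect2 has the widest spread within the treated groups relative to its mean.

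Promoter sequence was available from RefSeq (GRCm38.p6) for 38 of the 47 genes, in 41 windows of 300 bases, 250 before and 50 after a start site. No window was matched for Ccna2, Cdc25c, Wee1, Foxm1, Aurkb, Incenp, Spc24, Kif20a and Tpx2. A CHR, searched as TTTGAA or TTCGAA on both strands, was in the windows of 28 of the 38 genes, or 73.7%, beside 16.5% of the tested genes with a window and 21.7% of all genes in the promoter table. A CCAAT box (CCAAT, both strands) was in 27 of the 38, or 71.1%, beside 43.2% of the tested genes. The Myc E-box CACGTG was in 3 of the 38, or 7.89%, beside 12.7% of the tested genes. In 13 of the 28 genes a CHR lay before the RefSeq start site, and in the rest it lay only after it. The share of all genes with a CHR before the start was not counted. A CHR and a CCAAT box can share 1 letter, and neither can share letters with the E-box. Shown are the 150 bases before the RefSeq start of 2 genes that fell with 1 compound, Espl1 (chr15:102296143-102296292, plus strand) and Ect2 (chr3:27153879-27154028, minus strand), and of 4 that were called with neither, Cdc20 (chr4:118437344-118437493, minus strand), Ube2c (chr2:164769779-164769928, plus strand), Cdk1 (chr10:69352913-69353062, minus strand) and Kif11 (chr19:37376232-37376381, plus strand). They are written 5′ to 3′ on the strand of the gene, and capitals mark CHR, CCAAT and E-box letters in either orientation (TTCAAA is TTTGAA reversed, ATTGG is CCAAT reversed).
Espl1: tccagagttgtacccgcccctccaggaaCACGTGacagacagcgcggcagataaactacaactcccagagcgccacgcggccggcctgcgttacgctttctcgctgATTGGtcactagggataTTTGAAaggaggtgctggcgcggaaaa
Ect2: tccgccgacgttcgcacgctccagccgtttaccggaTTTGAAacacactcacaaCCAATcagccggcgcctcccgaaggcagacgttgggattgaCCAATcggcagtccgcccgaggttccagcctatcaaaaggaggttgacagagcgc
Cdc20: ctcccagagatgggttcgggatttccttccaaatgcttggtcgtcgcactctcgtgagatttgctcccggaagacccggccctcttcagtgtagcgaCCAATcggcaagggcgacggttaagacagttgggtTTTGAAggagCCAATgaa
Ube2c: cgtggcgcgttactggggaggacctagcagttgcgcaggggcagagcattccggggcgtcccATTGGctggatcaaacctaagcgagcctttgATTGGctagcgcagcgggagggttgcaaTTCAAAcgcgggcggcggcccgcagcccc
Cdk1: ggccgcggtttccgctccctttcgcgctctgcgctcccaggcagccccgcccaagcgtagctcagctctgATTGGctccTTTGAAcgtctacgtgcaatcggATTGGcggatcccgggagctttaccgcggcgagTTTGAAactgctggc
Kif11: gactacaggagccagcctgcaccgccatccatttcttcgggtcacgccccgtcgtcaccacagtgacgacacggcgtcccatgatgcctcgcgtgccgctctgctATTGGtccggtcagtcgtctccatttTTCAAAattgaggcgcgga
Espl1 alone of the 6 has an E-box in the stretch shown. The stretches of Espl1, Cdc20, Ube2c and Cdk1 also contain the GENCODE start of the gene, at positions 102296266, 118437352, 164769898 and 69352938 in that order. Distances below are counted from the RefSeq start. The CHR of Espl1 begins at the GENCODE start, and the CHR of Ube2c and the nearer CHR of Cdk1 lie after it. In Espl1 a CHR began 27 bases before the start and a CCAAT box 44 bases before it. In Cdc20 a CHR began at 18 bases before the start, with the CCAAT box upstream of it at 53. In Ube2c the CHR lay 29 and the nearer CCAAT box 57 bases before the start, and in Kif11 they lay 19 and 45 bases before it. Espl1, which fell with RG6146, and these 3 genes, which were called with neither compound, each had a CCAAT box upstream of a CHR. They differed in the E-box of Espl1, in a further CCAAT box of Cdc20, 8 bases before the start, and in a further one of Ube2c, 88 bases before it. Ect2, which fell with JQ1, had the reverse order in the stretch shown, a CHR at 114 bases before the start and CCAAT boxes at 96 and 55. A further CHR of Ect2 lay 39 bases after that start, beyond the stretch shown. Its window thus also held a CCAAT box upstream of a CHR. Cdk1, called with neither compound, had CHRs at 71 and 15 bases and CCAAT boxes at 80 and 48. Of the 28 genes with a CHR, 1 was called higher and 2 lower with JQ1, and 1 higher and 4 lower with RG6146. Of the 10 genes without one, 1 was called higher and 0 lower with JQ1, and 1 higher and 1 lower with RG6146. Over all tested genes 28.9% were called with JQ1 and 26.0% with RG6146. Set against 28 and 10 genes, these counts are similar shares and do not show that genes with a CHR were called more often. The called genes Foxm1, Spc24 and Tpx2 had no matched window and are in neither set.

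Foxm1 (chr6:128362967-128376146, mm10, plus strand) encodes the forkhead activator of G2 and M genes and had the smallest adjusted p of the 47 with each compound. Its libraries held 29.7, 28.3 and 31.6 CPM with JQ1, 25.3, 26.6 and 24.1 CPM with RG6146, and 38.4, 41.8 and 40.3 CPM with DMSO, in the order of the replicates, as in all values below. Every treated library lay below every DMSO library, and every RG6146 library below every JQ1 library. The libraries of the 2 compounds did not overlap, in either direction, for 21.3% of the 47 genes and 9.93% of all tested genes. Foxm1 fell by 0.43 ± 0.11 (SE) on the log2 scale with JQ1 (adjusted p = 0.00616) and by 0.66 ± 0.11 with RG6146 (adjusted p = 2.0e-04), to 0.745 and 0.631 of its DMSO level. Its RG6146 call held in 17 of 18 alternative analyses and in each of the 9 with a library left out. Its JQ1 call held in 15 of 18 and in each of the 9 with a library left out. It ended with DESeq2 (adjusted p = 0.0599) and without DMSO replicate 2 and JQ1 replicate 2 together (adjusted p = 0.0655).

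Mybl2 (chr2:163054687-163084688, plus strand) encodes B-Myb, the activator that joins the MuvB complex ahead of Foxm1. It was measured at 85.9, 86.2 and 92.3 CPM with JQ1, 77.8, 81.5 and 83.1 CPM with RG6146, and 93.8, 105 and 93.7 CPM with DMSO. Both treated groups lay below all DMSO libraries. Its log2 fold change was -0.15 ± 0.08 with JQ1 (adjusted p = 0.205), and it fell by 0.27 ± 0.08 with RG6146 (adjusted p = 0.0230). The RG6146 call held in 10 of 18 alternatives and was lost without RG6146 replicate 1 (adjusted p = 0.0876), RG6146 replicate 2 (0.0526) or DMSO replicate 2 (0.112), and with DESeq2 (0.0817).

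Of the 11 mitotic entry genes, 0 were called with JQ1 and 3 fell with RG6146. Plk1 (chr7:122159439-122169873, plus strand), the polo kinase that acts from entry to cytokinesis, was among the most abundant of the 47. Plk1 had 320, 256 and 310 CPM with JQ1, 247, 234 and 309 CPM with RG6146, and 332, 392 and 372 CPM with DMSO. All treated libraries were below all DMSO libraries, but 1 RG6146 library lay within the range of the JQ1 libraries. Plk1 fell by 0.47 ± 0.11 with RG6146 (adjusted p = 0.00891), a call that held in 17 of 18 alternatives and without any single library. With JQ1 its log2 fold change was -0.31 ± 0.11 (adjusted p = 0.0637), and 9 of 18 alternatives called it lower, DESeq2 among them (adjusted p = 0.0386).

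The B-type cyclins activate Cdk1. Ccnb2 (chr9:70407692-70421547, minus strand) gave 48.8, 37.8 and 42.1 CPM with JQ1, 38.5, 43.0 and 33.2 CPM with RG6146, and 50.2, 47.2 and 56.3 CPM with DMSO. The RG6146 libraries lay below DMSO, while the JQ1 libraries overlapped it. Ccnb2 fell by 0.42 ± 0.12 with RG6146 (adjusted p = 0.0159), but not past the threshold without RG6146 replicate 3 (adjusted p = 0.0800) or DMSO replicate 3 (0.0752), nor with DESeq2 (0.0541). With JQ1 its log2 fold change was -0.26 ± 0.12 (adjusted p = 0.130). Ccnb1, the other B-type cyclin measured, averaged 146 ± 4.29 CPM with JQ1, 135 ± 7.77 CPM with RG6146 and 157 ± 11.4 CPM with DMSO, with adjusted p-values of 0.357 for JQ1 and 0.0611 for RG6146. Pseudogenes named after Ccnb1 and Ccnb2 held 99 and 5 counts over all libraries, so reads shared with a copy could be missing from either gene.

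Cdc25b (chr2:131186949-131198497, plus strand), a phosphatase that removes inhibitory phosphates from Cdk1, was at 72.6, 59.7 and 68.2 CPM with JQ1, 57.5, 52.9 and 60.7 CPM with RG6146, and 66.0, 70.2 and 72.2 CPM with DMSO. The RG6146 libraries lay below DMSO and the JQ1 libraries spanned it. Cdc25b fell by 0.28 ± 0.10 with RG6146 (adjusted p = 0.0411), a call kept in 8 of 18 alternatives. It was lost without JQ1 replicate 3 (adjusted p = 0.0516), RG6146 replicate 1 (0.0907), RG6146 replicate 2 (0.144), DMSO replicate 2 (0.0968) or DMSO replicate 3 (0.118). Spef1 overlaps Cdc25b on the opposite strand and held 685 counts beside 2484 for Cdc25b, and the strand setting of the counting is not given in the sources used here. The same limit holds for Kif20a with Cdc23 (4362 and 4076 counts) and Ccna2 with Exosc9 (6871 and 3839). It also holds for Cdc20 with Elovl1 (4640 and 2283) and Cdc25c with Gm3550 (248 and 299).

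Cdk1, the central mitotic kinase, was not called. It had 370, 328 and 358 CPM with JQ1, 293, 278 and 363 CPM with RG6146, and 287, 355 and 377 CPM with DMSO. The 3 groups overlapped. Its 95% interval was -0.20 to 0.30 with JQ1 and -0.37 to 0.13 with RG6146 on the log2 scale. Ccna2, cyclin A2, had intervals of -0.20 to 0.16 with JQ1 and -0.19 to 0.17 with RG6146. Aurka, the centrosomal Aurora kinase, and Nek2, a kinase of centrosome separation, had log2 fold changes of 0.06 and -0.10 with JQ1 and of -0.13 and 0.00 with RG6146. Cdc25c, a second Cdk1 phosphatase, Wee1, the kinase that holds Cdk1 inactive, and Melk, a kinase that peaks in mitosis, were the rarest of this role at 6.73 ± 0.463, 3.16 ± 0.534 and 6.50 ± 0.259 CPM in DMSO. Their intervals reached beyond 1.5-fold with RG6146, so changes of that size in them were not excluded.

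None of the 5 spindle assembly checkpoint genes, which delay anaphase until chromosomes are attached, was called with either compound by edgeR, and 1 of them, Bub1b, had an unadjusted p below 0.05 with each. Bub1b, the checkpoint protein BubR1, had 116, 130 and 117 CPM with JQ1, 113, 118 and 130 CPM with RG6146, and 130, 143 and 150 CPM with DMSO. Its treated libraries were all below its DMSO libraries, the closest by less than the rounding. The log2 fold change of Bub1b was -0.22 ± 0.09 with JQ1 (adjusted p = 0.0600) and -0.23 ± 0.09 with RG6146 (adjusted p = 0.0568). Bub3, its partner at kinetochores, had 310, 269 and 317 CPM with JQ1, 239, 242 and 312 CPM with RG6146, and 205, 264 and 279 CPM with DMSO, with overlap between all groups. Mad2l1, Bub1 and Ttk, which encode Mad2 and the checkpoint kinases Bub1 and Mps1, had log2 fold changes of 0.16, -0.20 and 0.00 with JQ1 and of 0.18, 0.07 and -0.09 with RG6146. DESeq2 also called none of the 5 with either compound.

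Among the 4 genes of anaphase onset, 0 were called with JQ1 and 1 fell with RG6146. Espl1 (chr15:102296266-102324357, plus strand) encodes separase, the protease that cuts cohesin. It had 32.0, 34.0 and 32.9 CPM with JQ1, 26.7, 25.8 and 26.8 CPM with RG6146, and 37.1, 32.4 and 30.7 CPM with DMSO. The RG6146 libraries lay below all others, whereas JQ1 and DMSO overlapped. Espl1 fell by 0.34 ± 0.11 with RG6146 (adjusted p = 0.0332), and its log2 fold change with JQ1 was -0.02 ± 0.11 (adjusted p = 0.910). The RG6146 call was lost in 10 of 18 alternatives, among them those without RG6146 replicate 1, 2 or 3 (adjusted p = 0.0736, 0.0882 and 0.0629), without DMSO replicate 1 or 2 (0.146 and 0.0542), and with DESeq2 (0.188).

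Cdc20, the activator of the anaphase-promoting complex (APC/C), had 147, 119 and 126 CPM with JQ1, 112, 114 and 130 CPM with RG6146, and 103, 112 and 119 CPM with DMSO. The JQ1 libraries all lay above the DMSO libraries, the lowest of them by less than the rounding. Its log2 fold change was 0.23 ± 0.09 with JQ1 (adjusted p = 0.0749) and 0.09 ± 0.09 with RG6146 (adjusted p = 0.521). Ube2c, the E2 enzyme of the APC/C, had 84.2, 94.2 and 86.0 CPM with JQ1, 105, 103 and 86.1 CPM with RG6146, and 117, 88.1 and 94.0 CPM with DMSO, and the groups overlapped. Pttg1, securin, was at 7.62 ± 0.705 CPM in DMSO, and its interval with RG6146 ran from -0.20 to 0.85. Cdc20 and Ube2c, which like Espl1 have a CCAAT box upstream of a CHR in the stretches shown above, were called with neither compound.

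In the chromosomal passenger complex, which corrects attachments and directs cytokinesis, 1 of 4 genes rose with each compound. Birc5 (chr11:117849251-117855743, plus strand), survivin, had 451, 416 and 423 CPM with JQ1, 435, 409 and 435 CPM with RG6146, and 344, 389 and 363 CPM with DMSO. All treated libraries lay above all DMSO libraries. Birc5 rose by 0.24 ± 0.07 with JQ1 (adjusted p = 0.0187) and by 0.22 ± 0.07 with RG6146 (adjusted p = 0.0272). The JQ1 call was lost without JQ1 replicate 1 (adjusted p = 0.0865) or DMSO replicate 1 (0.0822). The RG6146 call was lost without RG6146 replicate 1 (0.0912), RG6146 replicate 3 (0.0719), DMSO replicate 1 (0.108) or DMSO replicate 3 (0.0681). Both were lost when libraries were scaled by their size alone, with log2 fold changes of 0.10 and 0.11.

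Incenp, the scaffold of the complex, was not called. It had 269, 244 and 258 CPM with JQ1, 235, 236 and 257 CPM with RG6146, and 272, 283 and 274 CPM with DMSO. Its treated libraries were below its DMSO libraries, with log2 fold changes of -0.10 ± 0.07 for JQ1 (adjusted p = 0.317) and -0.19 ± 0.07 for RG6146 (adjusted p = 0.0666). Aurkb, the kinase of the complex, and Cdca8, borealin, had log2 fold changes of -0.03 and 0.05 with JQ1 and of 0.06 and -0.03 with RG6146. The point estimates of the 4 subunits lay on both sides of 0 with each compound.

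Of 7 centromere and kinetochore genes, 1 rose and 1 fell with each compound. Cenpf (chr1:189640606-189688086, minus strand), a protein of the outer kinetochore, had 261, 245 and 282 CPM with JQ1, 262, 268 and 248 CPM with RG6146, and 224, 235 and 206 CPM with DMSO. The treated libraries were all above the DMSO libraries. Cenpf rose by 0.24 ± 0.08 with JQ1 (adjusted p = 0.0264) and by 0.23 ± 0.08 with RG6146 (adjusted p = 0.0410). These calls were among the least stable. The JQ1 call was lost without JQ1 replicate 1 or 3 (adjusted p = 0.0616 and 0.141) or DMSO replicate 1 or 3 (0.0515 and 0.112). The RG6146 call held in 5 of 18 alternatives and was lost without JQ1 replicate 1 (0.0540), RG6146 replicate 1 or 2 (0.106 and 0.141), DMSO replicate 1 or 3 (0.0722 and 0.161), with DESeq2 (0.0624) and with size scaling alone (0.298).

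Spc24 (chr9:21755442-21760303, minus strand) encodes a subunit of the Ndc80 complex, which holds microtubule ends at the kinetochore. It had 52.4, 52.6 and 47.3 CPM with JQ1, 49.0, 50.1 and 46.6 CPM with RG6146, and 59.6, 62.8 and 68.1 CPM with DMSO. Treated and DMSO libraries did not overlap. Spc24 fell by 0.32 ± 0.10 with JQ1 (adjusted p = 0.0178) and by 0.39 ± 0.10 with RG6146 (adjusted p = 0.00629). The RG6146 call held without any single library, while the JQ1 call was lost without JQ1 replicate 3 (adjusted p = 0.0812) or DMSO replicate 3 (0.0748) and with DESeq2 (0.0871).

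The other 3 subunits of the Ndc80 complex were not called. Ndc80 had 29.3, 31.2 and 32.9 CPM with JQ1, 31.5, 35.7 and 31.8 CPM with RG6146, and 35.7, 36.1 and 38.8 CPM with DMSO. Nuf2 averaged 25.5 ± 3.91 CPM with JQ1, 28.6 ± 2.02 CPM with RG6146 and 32.0 ± 4.43 CPM with DMSO. Spc25, which pairs with Spc24, averaged 49.1 ± 0.332 CPM with JQ1, 59.6 ± 1.26 CPM with RG6146 and 56.3 ± 5.78 CPM with DMSO. With JQ1 all 4 subunits had negative log2 fold changes, -0.25 for Ndc80 (adjusted p = 0.0988), -0.33 for Nuf2 (0.0839), -0.32 for Spc24 and -0.20 for Spc25 (0.149). With RG6146 Spc25 was at 0.08 and the other 3 were negative. Cenpa, the centromeric histone, had 237, 245 and 252 CPM with JQ1, 210, 222 and 248 CPM with RG6146, and 196, 205 and 242 CPM with DMSO, with overlap between groups. Cenpe, the kinetochore motor, had log2 fold changes of -0.10 with JQ1 and -0.02 with RG6146.

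Of 6 further kinesins, 1 fell with JQ1 and 0 were called with RG6146, where 2 had an unadjusted p below 0.05 by edgeR. Kif20b (chr19:34922361-34975745, plus strand), a motor of the midzone that acts late in cytokinesis, had 128, 119 and 140 CPM with JQ1, 139, 148 and 131 CPM with RG6146, and 167, 158 and 151 CPM with DMSO. All treated libraries lay below all DMSO libraries. Kif20b fell by 0.30 ± 0.08 with JQ1 (adjusted p = 0.0127), and its log2 fold change was -0.19 ± 0.08 with RG6146 (adjusted p = 0.114). The JQ1 call was lost without JQ1 replicate 2 (adjusted p = 0.0515), without DMSO replicate 1 (0.0532), or without DMSO replicate 2 and JQ1 replicate 2 together (0.0973).

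Kif23, the motor subunit of centralspindlin, had 129, 101 and 127 CPM with JQ1, 128, 108 and 109 CPM with RG6146, and 103, 119 and 112 CPM with DMSO, with overlap. Kif20a, which carries the passenger complex to the midzone, and Kif11, the motor that separates spindle poles, had log2 fold changes of 0.08 and -0.20 with JQ1 and of 0.05 and -0.08 with RG6146. Kif2c, a microtubule depolymerase, was at -0.18 with JQ1 and -0.09 with RG6146. Kif4, a chromokinesin, was at -0.31 with JQ1 (adjusted p = 0.0787) and -0.29 with RG6146 (95% interval -0.55 to -0.03), and its treated libraries lay below its DMSO libraries.

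Of 7 genes of the spindle, midzone and cytokinesis, 1 fell with each compound, Ect2 with JQ1 and Tpx2 with RG6146. Tpx2 (chr2:152847964-152895321, plus strand), which activates Aurora A on the spindle, had 93.2, 94.2 and 92.8 CPM with JQ1, 91.0, 89.1 and 86.8 CPM with RG6146, and 105, 111 and 106 CPM with DMSO. Replicates were close, and treated and DMSO libraries did not overlap. Tpx2 fell by 0.27 ± 0.08 with RG6146 (adjusted p = 0.0152), and its log2 fold change was -0.20 ± 0.08 with JQ1 (adjusted p = 0.0641). The RG6146 call held in 12 of 18 alternatives and was lost without DMSO replicate 2 (adjusted p = 0.0587) and with DESeq2 (0.0616).

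Ect2 (chr3:27097222-27153878, minus strand), the exchange factor that activates RhoA for the cleavage furrow, had 12.8, 18.1 and 13.6 CPM with JQ1, 21.4, 17.7 and 13.4 CPM with RG6146, and 22.4, 21.3 and 20.6 CPM with DMSO. The JQ1 libraries lay below DMSO, and the RG6146 libraries overlapped both. Ect2 fell by 0.53 ± 0.18 with JQ1 (adjusted p = 0.0325), the lowest log2 fold change of the 47 with that compound, and was at -0.29 ± 0.18 with RG6146 (adjusted p = 0.243). It had 692 counts over the 9 libraries, and its JQ1 call was lost without JQ1 replicate 1 (adjusted p = 0.143) or 3 (0.108), without DMSO replicate 1 (0.0884), 2 (0.0634) or 3 (0.0520), and with DESeq2 (0.119).

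The other genes of this role were not called. Nusap1, a spindle-associated protein, had 211, 213 and 227 CPM with JQ1, 220, 211 and 224 CPM with RG6146, and 191, 197 and 221 CPM with DMSO. Prc1, which bundles midzone microtubules, had 144, 140 and 163 CPM with JQ1, 146, 152 and 158 CPM with RG6146, and 142, 145 and 134 CPM with DMSO. Intervals of both lay within 1.5-fold of no change with each compound. Hmmr, a spindle protein and hyaluronan receptor, and Ckap2, a microtubule-associated protein, had log2 fold changes of 0.18 and 0.14 with JQ1 and of 0.15 and 0.27 with RG6146. Anln, anillin of the contractile ring, was at -0.32 with JQ1 (adjusted p = 0.105) and -0.04 with RG6146.

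Top2a, the topoisomerase that untangles sister chromatids, was the most abundant of the 47. It had 1399, 1249 and 1367 CPM with JQ1, 1325, 1347 and 1382 CPM with RG6146, and 1422, 1385 and 1317 CPM with DMSO. The groups overlapped, and its 95% intervals, -0.17 to 0.09 with JQ1 and -0.15 to 0.10 with RG6146, were the narrowest of the 47. In DMSO, Top2a ranked 66 among the 11002 tested genes by level. Birc5 and Plk1 followed at 365 CPM each, with Cdk1 at 340 CPM, and these 3 overlapped. The lowest were Pttg1, Cdc25c, Melk and Wee1.

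The level of the set as a whole depended on how libraries were scaled. With TMM scaling, the 47 genes summed to 6626, 6129 and 6608 CPM with JQ1, 6236, 6184 and 6504 CPM with RG6146, and 6361, 6635 and 6524 CPM with DMSO, and the groups overlapped. As a share of total gene counts, the sums averaged 6199 ± 212 CPM with JQ1, 6164 ± 64.9 CPM with RG6146 and 6851 ± 96.6 CPM with DMSO (SD, n = 3 each), and treated and DMSO libraries did not overlap. Scaled to the ERCC spike-ins, they averaged 6551 ± 1388 CPM with JQ1, 6587 ± 1159 CPM with RG6146 and 6658 ± 1088 CPM with DMSO. In replicate order these sums were 5553, 5963 and 8135 CPM with JQ1, 5503, 6449 and 7809 CPM with RG6146, and 5429, 7047 and 7498 CPM with DMSO. They rose with replicate number in every group, so these SDs include an order shared by the groups. TMM factors were 0.948 to 0.977 with JQ1, 0.958 to 1.00 with RG6146 and 1.04 to 1.07 with DMSO, so the scaling differed with the groups. Scaling by library size alone set the median log2 fold change of all tested genes at -0.13 with JQ1 and -0.10 with RG6146. It called 0 mitosis genes higher and 19 lower with JQ1, and 0 higher and 13 lower with RG6146, the 40.4% and 27.7% given above beside 30.5% and 26.9% of all genes. The difference between the mitosis median and the median of all tested genes was -0.10 with JQ1 and -0.05 with RG6146 under both scalings. A change of scaling shifts all log2 fold changes by about the same amount, so this likeness was fixed in advance.

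**Figure D4:**
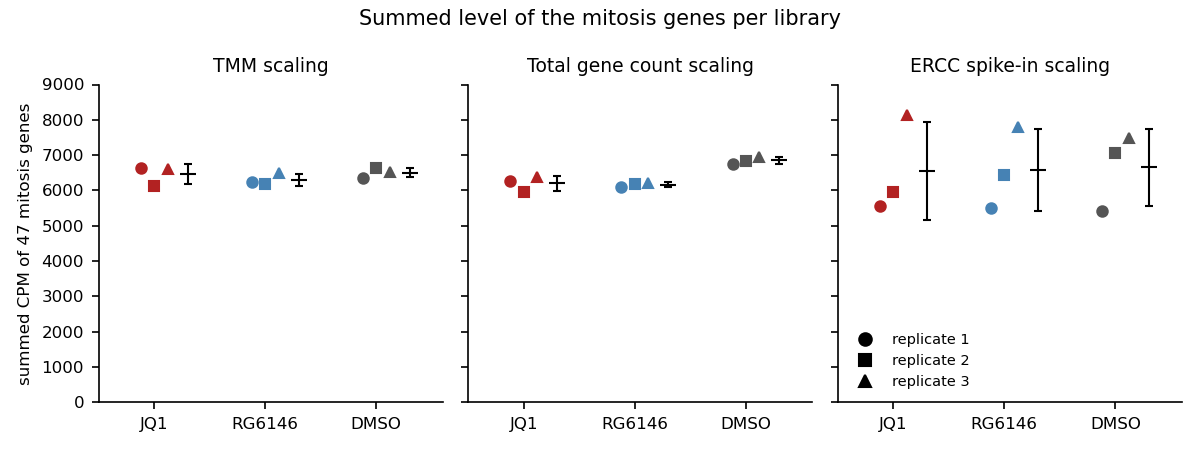
Summed CPM of the 47 mitosis genes in each library (points, shaped by replicate) with the mean and SD of each group (bars), under TMM, total gene count and ERCC spike-in scaling. Treated and DMSO libraries are apart under total gene count scaling, and overlap under TMM and spike-in scaling, where the SD within groups is largest.

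Between the compounds, whose doses differed, no mitosis gene was called. RG6146 against JQ1 gave 0 calls among the 47 by edgeR and by DESeq2, beside 0.00909% of all tested genes by edgeR, and 4 of the 47 had an unadjusted p below 0.05, beside 3.88% of all tested genes. These were Spc25, with a log2 difference of 0.28 (95% interval 0.07 to 0.48), Espl1 at -0.32 (-0.56 to -0.08), Cdc25b at -0.23 (-0.44 to -0.02) and Foxm1 at -0.24 (-0.47 to -0.01), each with an adjusted p of 0.999. The libraries of the 2 compounds did not overlap for 10 of the 47, or 21.3%, beside 9.93% of all tested genes. In 4 of these RG6146 was higher and in 6 it was lower. Over the 47 genes the difference ran between -0.36 and 0.47. For 41 of them the interval lay within 1.5-fold of no difference, beside 60.4% of all tested genes. By adjusted p, the genes called with 1 compound alone were thus not shown to differ between the compounds. For Plk1 the interval of the difference was -0.41 to 0.09, for Kif20b -0.07 to 0.29 and for Ect2 -0.14 to 0.62. Espl1 and Cdc25b are also among those genes, and their intervals, given above, left out 0.

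Beyond the 47, a list of 134 other mitosis genes held larger changes. Of 130 tested, 17 rose and 27 fell with JQ1, or 33.8% beside 28.9% of all tested genes, and 13 rose and 16 fell with RG6146, or 22.3% beside 26.0%, with medians of -0.04 and -0.03. Those with the smallest p among the risers with JQ1 were Tubb4b, a beta-tubulin, Zwilch, a subunit of the kinetochore RZZ complex, Tuba1b, an alpha-tubulin, and Cks1b, an adaptor of cyclin-dependent kinases. Tubb4b had 642, 568 and 646 CPM with JQ1, 565, 551 and 518 CPM with RG6146, and 318, 330 and 358 CPM with DMSO. Zwilch had 62.7, 60.0 and 67.2 CPM with JQ1, 56.1, 53.4 and 57.9 CPM with RG6146, and 41.0, 32.4 and 32.6 CPM with DMSO. In both genes the treated libraries stood clear of DMSO, with rises of 0.88 ± 0.07 (adjusted p = 1.3e-07) and 0.84 ± 0.11 (1.8e-05) with JQ1. Tuba1b rose by 0.32 and Cks1b by 0.44 with JQ1. With RG6146, Tubb4b rose by 0.70, Zwilch by 0.65, Anapc16, an APC/C subunit, by 0.57, and Fam83d, a spindle protein, by 0.82. Tubulin genes have close copies, so reads may be split among them.

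The smallest p among the genes of this list that fell with JQ1 belonged to Sass6, the cartwheel protein of new centrioles, Pbk, a mitotic kinase, Sgo1, shugoshin, which protects centromeric cohesin, and Lin9, a core subunit of MuvB. Sass6 had 12.2, 16.7 and 11.8 CPM with JQ1, 14.6, 12.1 and 10.9 CPM with RG6146, and 29.9, 28.4 and 29.5 CPM with DMSO. It fell by 1.11 ± 0.16 with JQ1 (adjusted p = 5.1e-05) and by 1.22 ± 0.16 with RG6146 (adjusted p = 2.5e-05), past every change among the 47. Lin9 had 16.2, 14.8 and 22.2 CPM with JQ1, 17.8, 21.8 and 18.6 CPM with RG6146, and 33.9, 39.0 and 29.5 CPM with DMSO. Treated libraries of both genes lay below DMSO. Lin9 fell by 0.95 with JQ1 and by 0.81 with RG6146, Pbk by 0.66 and by 0.50, and Sgo1 by 0.65 and by 0.47. Anapc4, an APC/C subunit among the 4 smallest p with RG6146, fell by 0.80 with that compound. Of 17 APC/C subunits and regulators, 4 rose and 6 fell with JQ1, and 3 rose and 3 fell with RG6146. Of 20 cohesin and condensin genes, 0 rose and 5 fell with JQ1, and 0 rose and 2 fell with RG6146. Over all tested genes, 13.6% rose and 15.4% fell with JQ1, and 12.5% rose and 13.5% fell with RG6146.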

How the data were processed

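RNA of 9 cultures was sequenced with the QuantSeq 3′ kit from 500 ng of RNA as single reads of 75 bases, per the labels' protocols. The table the authors deposited gives unnormalised whole-number counts for each gene. The submitters' processing notes list HISAT2 2.1.0, featureCounts and Subread, cutadapt 1.7, limma, FastQC 0.11.5 and bcl2fastq 2.17.1.14, with mm10 as the build. Which annotation release, strand setting and handling of multiply mapping reads applied is not given in the sources, so reads of overlapping or near-identical genes may be mixed, split or dropped.

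Symbols came from GENCODE M21, and library sizes leave out the 92 ERCC rows. The tests were run in edgeR 4.0.16 under R 4.3.3, with filterByExpr at a minimum count of 10, TMM, and a robust quasi-likelihood F-test on all 9 libraries with group as the only term. Calls were made at an adjusted p under 0.05 (Benjamini-Hochberg, 11002 genes). Fold changes use no prior count. SEs and 95% Wald intervals come from the same model. Levels are TMM-normalised CPM, and marker sums are CPM of total gene counts. DESeq2 1.42.0 was an alternative. Tests were checked on simulated counts. The labels say biological triplicate of 1 clone, so p-values measure the spread between its cultures. No library repeated another of its group within sampling noise (chi-square per degree of freedom 6.64 to 16.5). The precision of each value is limited by 3410161 to 5031717 gene counts per library.

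Values in every library are given for each called member and for the 2 most abundant members of each role. Of the other mitosis genes, up to 4 called genes per direction and compound with the smallest p are named. Members, lists and tests were chosen with earlier results of these data known. Alternatives covered DESeq2, library size and ERCC scaling, low-count filters, a replicate block, fewer libraries, and leaving out each library.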

Additional observations from a re-analysis of the deposited data

How the results depend on the processing

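No mitosis gene changed direction past the threshold under any alternative, and RG6146 against JQ1 called 0 of the 47 in each. With JQ1, where 2 genes were called higher and 4 lower, DESeq2 called 2 lower, library size scaling 0 higher and 19 lower, ERCC scaling 0 higher and 0 lower, ERCC scaling with a replicate block 0 higher, a mean of at least 10 CPM 10 lower, and leaving out DMSO replicate 2 and JQ1 replicate 2 together 2 lower. With RG6146, where 2 were called higher and 8 lower, DESeq2 called 1 higher and 3 lower, library size scaling 0 and 13, ERCC scaling 0 and 0, ERCC scaling with a replicate block 0 and 4, no filter on low counts 1 and 4, a mean of at least 10 CPM 0 higher, the replicate block 1 higher, only the 6 libraries compared 1 higher, and leaving out DMSO replicate 2 and JQ1 replicate 2 4 lower. Leaving out 1 library gave 0 to 3 higher and 2 to 5 lower with JQ1, and 0 to 2 higher and 4 to 9 lower with RG6146. The filter at a mean of 10 CPM tests 7411 genes, and there 27.9% of the tested mitosis genes were called with JQ1 beside 32.6% of all. With no filter 23655 genes are tested, and 8 of the 47, the larger share, were called with JQ1 beside 14.2%. With JQ1 the share of mitosis genes thus lay below that of all genes with each filter and above it without one. With RG6146 it lay below in each case, at 25.6% beside 29.4% with the 10 CPM filter. Library size scaling put it above with both compounds, on the same 11002 genes. The cause of these changes was not tested. ERCC scaling also lowered the calls over all genes to 1196 with JQ1 and 1082 with RG6146. At most 2 mitosis genes passed 1.5-fold in any alternative against DMSO.

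Same-numbered libraries of different groups correlated at -0.06 to 0.10 in their deviations from the group means, so the replicate numbers were not taken to pair them. With the replicate block, 2 genes were called higher and 5 lower with JQ1, and 1 higher and 8 lower with RG6146. Depth limits Wee1, Melk, Cdc25c and Pttg1 most, with 125 to 326 counts over the 9 libraries.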
